A study of Arabidopsis thaliana with 4 samples.

Results

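UDP-glycosyltransferases (UGTs) are enzymes that attach a sugar, usually glucose from UDP-glucose, to small molecules. In plants their targets include hormones, phenylpropanoids, flavonoids, glucosinolate precursors, sterols and foreign compounds. The attached sugar generally makes the molecule more water-soluble and less reactive, and lets the cell store it in the vacuole or lower the amount of an active hormone. Arabidopsis thaliana carries a large UGT family, in which the number after UGT names a sequence family and the letter a subfamily.

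The genes described here are those whose symbol in the array's annotation is UGT followed by a digit, on a probe set assigned to exactly 1 gene, with the flavonol enzymes UGT78D1 and UGT78D2 left out. The rule gave 45 probe sets for 45 genes out of 13513 probe sets with 1 gene and 22746 in all. A further 3 UGT probe sets carry several genes and stay unnamed. UF3GT, AT5G54010, GT72B1 and SGT, listed in RefSeq with a UGT synonym, fell outside the rule because the annotation gives them another symbol.

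The study, titled as one of dark-induced expression in sfr6, used 4 Affymetrix ATH1 arrays, 1 for each of 4 groups. Col-0 wild type or sfr6, an EMS-induced mutant in the Col-0 background, grew on agar for 7 days and spent 24 h in a bright cabinet (240 microEinsteins, with 16 h of light and 8 h of dark a day). In both genotypes 1 array then came from plants left 3 h in the light and 1 from plants wrapped in foil for 3 h. SFR6 is known as MED16 and belongs to the Mediator complex, which connects transcription factors with RNA polymerase II; its own transcript is not analysed here. The allele number and the number of plants per array are not given in the sources used here. No group has a replicate, so the p-values below rest on how far the 2 genotypes' dark responses differ and on the spread that limma borrows from all probe sets.

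The tissue is labelled as cell culture, against the treatment text, which describes plants. Of 20 leaf and photosynthesis markers, 3 had a named probe set, and the signals of RCA, the Rubisco activase, were 3522, 3290, 3384 and 3043 in wild type light, wild type dark, sfr6 light and sfr6 dark. Of 8 root markers, 3 had one, and the root gene PYK10 read 3004, 2081, 2562 and 1823 in the same order. The summed signal was between 8244 and 10070 over the 3 leaf markers and between 1865 and 3069 over the 3 root markers. Nearly all of the root sum was PYK10: EXPA7 read between 23.3 and 54.6, and EXPA18 was under the floor on both dark arrays, at 18.4 and 13.5. Epidermal and vascular markers are not analysed here. The median signal of an array was between 34 and 38.56, and between 58.2% and 61.6% of probe sets lay over the floor of 22.1 below which signals were treated as equal.

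Of the 45 UGT genes, 21 were over the floor on all 4 arrays, 9 on 1 to 3 arrays and 15 on none. The 15 were UGT71B5, UGT71B6, UGT71B8, UGT71C3, UGT72E3, UGT73C7, UGT73D1, UGT74F1, UGT76E1, UGT76E2, UGT78D3, UGT84A1, UGT84B1, UGT84B2 and UGT85A7, with no signal over 21.7. They include genes for well-studied conjugations: UGT71B6 acts on abscisic acid, UGT74F1 on salicylic acid, UGT84B1 on indole-3-acetic acid and UGT76E1 on a hydroxylated jasmonate. None of these was compared between groups, and a low probe signal does not show that a transcript is absent. A further 4 genes, UGT73C2, UGT76D1, UGT76E12 and UGT85A3, exceeded the floor on a single array, with no signal over 25.5.

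The remaining results concern the 30 genes over the floor on at least 1 array. Some of these entered only through the arrays on which they were bright, so the counts below describe 30 genes and not the whole family. In bulk RNA, fewer cells of one type and less RNA per cell cannot be told apart.

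**Figure D1:**
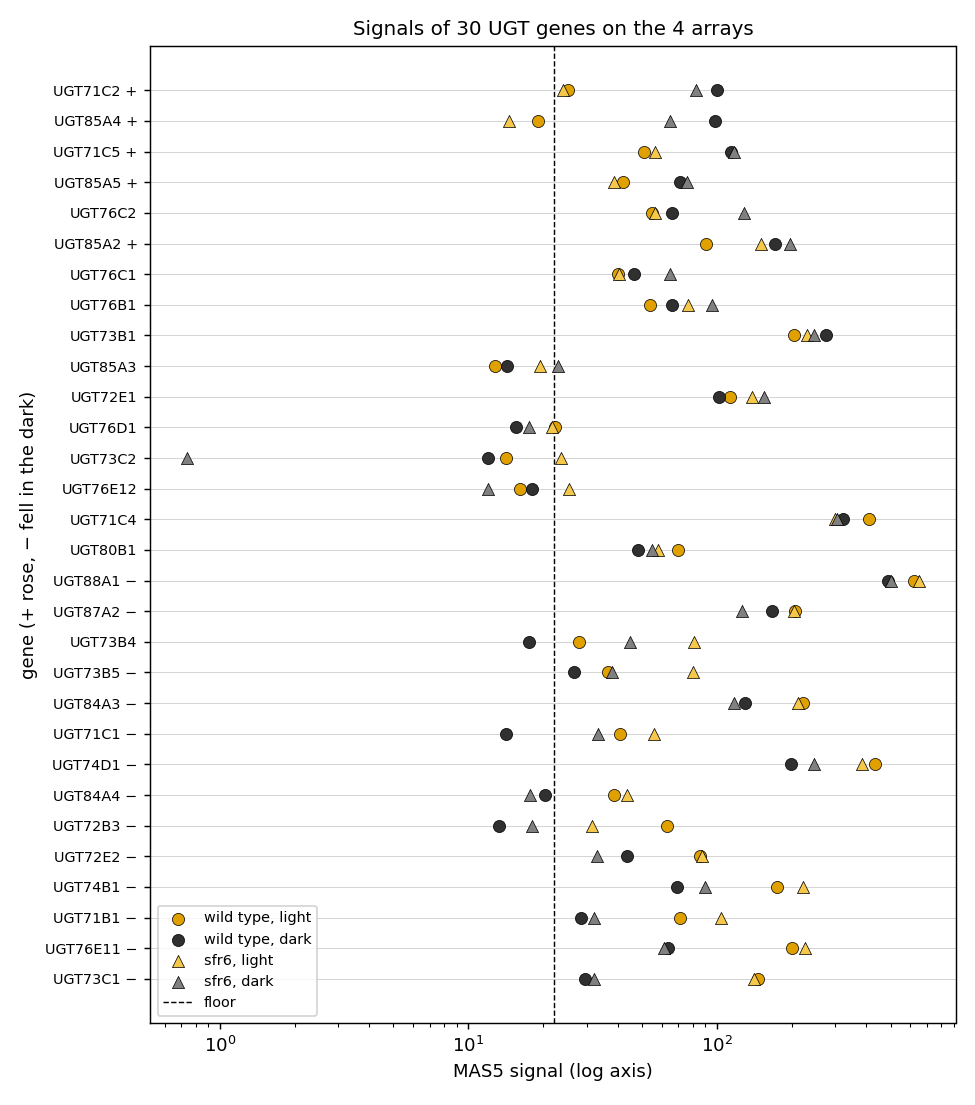
MAS5 signal (log axis) of each of the 30 UGT genes over the floor on at least 1 array, with 1 point for each of the 4 arrays and genes ordered by their average dark effect. Circles are wild type and triangles sfr6, yellow is light and black or grey is dark; the dashed line is the floor of 22.1, and + and − mark the 5 genes that rose and the 13 that fell. Positions are comparable along a row only, since probes differ in brightness.

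The first comparison asks how UGT transcripts respond to 3 h of darkness. More of these genes fell than rose: UGT73C1, UGT76E11, UGT71B1 and UGT74B1 were at least 2-fold lower in the dark in both genotypes, and UGT71C2, UGT85A4 and UGT71C5 at least 2-fold higher in both. By limma's average dark effect (adjusted p under 0.05 by Benjamini-Hochberg across the 15121 probe sets tested), 13 of 30 genes fell, or 43.3%, where 17.8% of all tested probe sets fell. In the other direction 5 of 30 rose, or 16.7%, beside 15.4% of all. Among the 21 genes over the floor on all 4 arrays, 10 fell and 4 rose, where 17.8% and 17.4% of such probe sets did. The share that rose was thus near the background, and the share that fell was above it; that excess over the background was not tested.

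UGT73C1 encodes an enzyme that glucosylates cytokinins. The wild-type arrays read 147 in light and 29.6 after dark, and the sfr6 arrays read 141 and 32.1. Both dark arrays lay far below both light arrays, and the genotypes overlapped. Wild type differed by 4.98-fold and sfr6 by 4.39-fold, for an average log2 effect of -2.22 ± 0.17 (SE; limma adjusted p 0.00062).

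UGT76E11, whose product glucosylates flavonols, read 200 in light and 63.4 after dark on the wild-type arrays, and 226 and 61.3 on those of sfr6. The drop was 3.15-fold for wild type and 3.7-fold for sfr6, with the average log2 effect at -1.77 ± 0.15 (limma adjusted p 0.000749). UGT74B1 makes the thiohydroximate glucosylation step of glucosinolate synthesis, the pathway of the mustard-family defence compounds. Wild-type arrays read 174 in light and 68.9 after dark, and sfr6 arrays 222 and 89.6. The log2 dark differences of -1.34 and -1.31 were nearly equal in the genotypes, and the average was -1.32 ± 0.14 (limma adjusted p 0.00146). UGT71B1 read 70.9 and 28.5 in light and dark for wild type, against 104 and 32.0 for sfr6, with an average of -1.51 ± 0.19 (limma adjusted p 0.00274). For each of these genes the light and dark signals did not overlap. With the floor at the 60th percentile of signals, UGT71B1 no longer passed.

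Of the phenylpropanoid enzymes, UGT72E2 glucosylates the lignin precursors coniferyl and sinapyl alcohol. Signals were 85.2 (light) and 43.7 (dark) for wild type and 87.4 and 33.0 for sfr6. The gene fell, with its average log2 effect at -1.18 ± 0.20 (limma adjusted p 0.00682). UGT72E1, which acts mainly on the corresponding aldehydes, read 113 (light) and 102 (dark) for wild type and 138 and 155 for sfr6, with no shared direction in the dark and an average effect of 0.01 ± 0.15. UGT84A3 and UGT84A4, which form glucose esters of hydroxycinnamic acids, both fell. For UGT84A3, wild-type signals were 222 in light and 130 after dark, and sfr6 signals 212 and 117. For UGT84A4 they were 38.4 and 20.4, then 43.7 and 17.7, with both dark signals under the floor, so that its falls of at least 1.74-fold and at least 1.98-fold are lower bounds. UGT72B3, related by sequence, also had both dark signals under the floor, at 13.3 in wild type and 18.1 in sfr6, from 63.1 and 31.4 in light; its call was lost with the floor at the 60th percentile.

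UGT71C2, without a role given here, was among the genes that rose. Wild-type signals were 25.2 in light and 99.7 after dark; those of sfr6 were 24.1 and 82.4. The light signals lay close to the floor and the dark signals well above it. The rise was 3.96-fold for wild type and 3.42-fold for sfr6 (average log2 effect 1.88 ± 0.18, limma adjusted p 0.00106). UGT71C5 glucosylates abscisic acid, which converts the hormone to an inactive ester. Light and dark signals were 51.1 and 114 for wild type and 56.3 and 117 for sfr6, so that both dark arrays read higher than both light arrays. The average log2 effect was 1.11 ± 0.16 (limma adjusted p 0.00468).

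The UGT85 family held 3 of the 5 genes that rose, from 4 tested. UGT85A4 read 19.0 (light) and 98.1 (dark) for wild type and 14.6 and 64.9 for sfr6. Both light signals were under the floor, so the rises of at least 4.44-fold and at least 2.93-fold are lower bounds (average log2 effect 1.85 ± 0.21 on floored signals, limma adjusted p 0.0019). UGT85A5 read 42.0 (light) and 71.2 (dark) for wild type and 38.7 and 75.8 for sfr6 (average 0.86 ± 0.18). The pairs for UGT85A2 were 90.4 and 171, and 151 and 197 (average 0.65 ± 0.17), and its sfr6 light signal approached its wild-type dark signal. With the floor at the 60th percentile UGT85A4 and UGT85A5 no longer passed.

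The other families leaned the other way or were mixed. Of 5 tested UGT71 genes, 2 rose and 2 fell; UGT71C1 fell, with 40.9 in light and 14.2 after dark for wild type, a drop of at least 1.85-fold, and 55.8 and 33.1 for sfr6. In the UGT73 family 2 of 5 fell. In the UGT74 family both tested genes fell, and so did 2 of 3 in UGT72 and both in UGT84. Of 6 tested UGT76 genes, UGT76E11 alone passed. UGT74D1, which glucosylates auxins, read 431 (light) and 198 (dark) for wild type and 385 and 247 for sfr6, and its average log2 effect was -0.88 ± 0.15 (limma adjusted p 0.007).

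Smaller falls were seen for UGT88A1, UGT87A2 and UGT73B5. UGT88A1 read 620 (light) and 489 (dark) for wild type and 650 and 504 for sfr6, with differences of 1.27-fold and 1.29-fold. UGT87A2, known for an effect on flowering time, read 207 and 166 for wild type and 204 and 126 for sfr6. All 3 passed narrowly, with limma adjusted p between 0.038 and 0.0423, and none of them passed with median centring of the arrays. UGT71C4 (409, 321, 298 and 304 in wild type light, wild type dark, sfr6 light and sfr6 dark) and UGT73B1 (204, 274, 230 and 247) did not pass, at average log2 effects of -0.16 ± 0.13 and 0.27 ± 0.13. UGT80B1, a sterol glucosyltransferase, read 70.0, 48.2, 57.8 and 54.6 in that order and did not pass.

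Taken for each genotype alone and with no test, wild type had 3 of 27 genes that were 2-fold or more up in the dark and 6 that were down as far (6.47% and 7.19% of all probe sets compared). The sfr6 counts were 4 and 6 of 29 (6.85% and 6.87%). In both genotypes at once, 3 of 26 were higher and 4 lower (4.88% and 4.6%). The median log2 difference was -0.34 over 27 genes in wild type, beside -0.06 over all probe sets, and -0.21 over 29 genes in sfr6, beside -0.05. The UGT medians were below 0 in both genotypes under every alternative scaling, while that of all probe sets was above 0 with median centring, at 0.087 in wild type and 0.045 in sfr6.

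The array control for 25S ribosomal RNA was higher on both dark arrays, at 364.4 in wild type and 1321 in sfr6 against 121.6 and 119.8 in light, and the root markers PYK10 and EXPA18 fell, 2 of 3 root markers measured, while the 3 leaf markers did not pass (limma adjusted p between 0.182 and 0.708). Their part in the UGT differences was not tested. The fit has 1 residual degree of freedom, and 7 of the 18 dark calls were lost under at least 1 alternative setting.

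**Figure D2:**
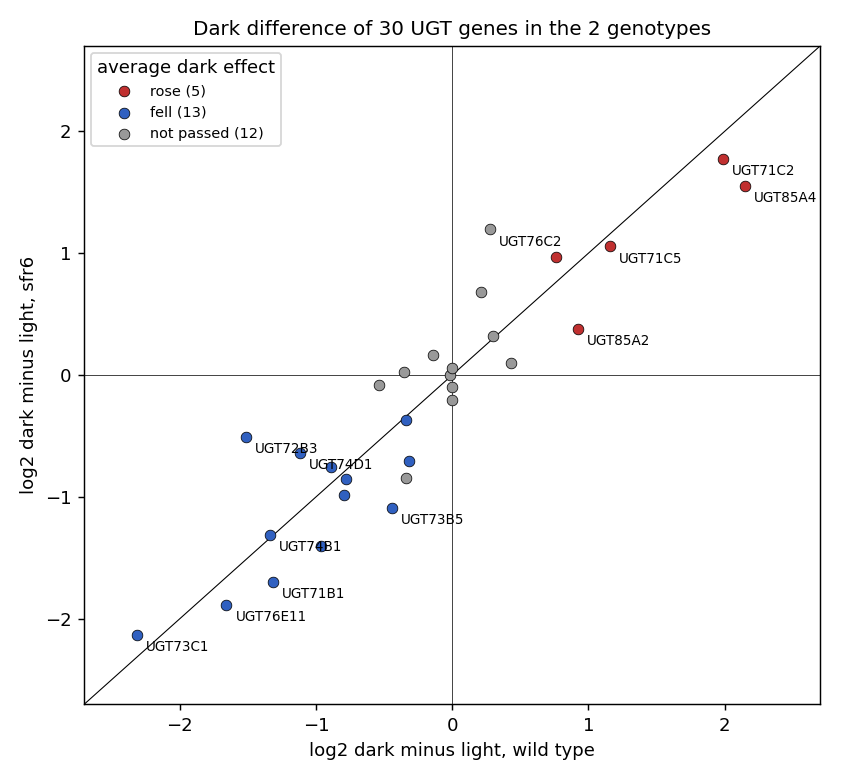
Log2 dark minus light difference of floored signals in wild type (horizontal) and sfr6 (vertical) for the 30 UGT genes; the diagonal marks equal differences and colours show the average dark effect. The genes that rose sit at the upper right, with UGT71C2 at 1.98 and 1.77 and UGT85A4 at 2.15 and 1.55, and those that fell at the lower left, down to -2.32 and -2.13 for UGT73C1.

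Whether the dark response of UGT genes differs between genotypes can be described but not tested, since each genotype has 1 array per condition. Of 26 genes in both dark comparisons, 9 were higher in dark in both genotypes and 15 lower in both. The shares of all probe sets with such shared signs are not given here, so these counts do not set UGT genes apart. The response difference (sfr6 minus wild type) was 2-fold or more above 0 for 1 of 30 genes. It was as far below 0 for 0 genes, beside 1.08% and 1.48% of all probe sets. These counts turned with the floor, to 2 and 4 with the floor at the 20th percentile and to 0 and 1 with log2(signal + 16). The gene counted was UGT72B3, with a response difference of 1.00 on the log2 scale that depends on the floor, as both of its dark signals lay under it. UGT72B3 was lower in dark in both genotypes, and on floored signals it fell less in sfr6 (-0.51) than in wild type (-1.51).

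Among genes over the floor on all arrays, the highest response difference belonged to UGT76C2. Together with UGT76C1 it attaches glucose to ring nitrogens of cytokinins, which inactivates them. UGT76C2 read 54.8 (light) and 66.3 (dark) for wild type and 56.4 and 129 for sfr6. The sfr6 dark array stood alone, while the other 3 signals lay close together. That array also had the highest 25S ribosomal RNA control, at 1321 beside 364.4 for wild type dark, and a link was not tested. The dark arrays were higher by 1.21-fold for wild type and 2.29-fold for sfr6, a response difference of 0.92 on the log2 scale. The average dark effect did not pass (limma adjusted p 0.0675). It passed under 4 of 8 alternatives, with limma adjusted p between 0.0206 and 0.096 over the 8. UGT76C1 showed the same order of signals at a smaller size, with 40 and 46.4 for wild type and 40.3 and 64.7 for sfr6 (response difference 0.47).

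UGT74D1 and UGT80B1 had response differences of 0.48 and 0.45, on either side of that of UGT76C1, since the dark arrays of wild type were lower by 2.17-fold and 1.45-fold and those of sfr6 by 1.56-fold and 1.06-fold. The lowest response differences among genes over the floor on all arrays were -0.64 for UGT73B5, -0.54 for UGT85A2, -0.44 for UGT72E2 and -0.39 for UGT87A2. UGT85A4 and UGT73B4, each with signals under the floor, had -0.60 and -0.51. For UGT85A2 the sfr6 array in light, at 151, was well above the wild-type array in light, at 90.4, and the dark signals of 171 and 197 were nearer each other.

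The last comparison asks which UGT genes differ between sfr6 and wild type. UGT73B4 was the 1 gene of 30 called as higher in sfr6, and 0 were called as lower, where limma called 0.417% of all probe sets as higher and 0.86% as lower. At an unadjusted p under 0.05, 7 genes were higher and 0 lower, or 23.3% of 30 beside 11.3% of all probe sets for higher and 8.47% for lower. A floor at the 60th percentile gave 4 of 24 higher. The other alternatives, with between 21 and 38 genes tested, gave between 5 and 9, with at most 1 lower. The 9 came with centring on spike-in controls, where the medians of all probe sets were also raised, to 0.235 in light and 0.179 in dark. Shares of all probe sets under the alternatives are not given here, so these counts show no excess for UGT genes. UGT73B4 and UGT73B5 encode close relatives that act on flavonoids and foreign phenolics and are known to be induced by pathogens and oxidative stress.

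UGT73B4 read 28.0 (wild type) and 80.6 (sfr6) in light, then 17.6 and 44.8 after dark. Both sfr6 arrays were above both wild-type arrays. The excess was 2.88-fold in light and 2.02-fold or more after dark, and the average log2 effect was 1.27 ± 0.20 (limma adjusted p 0.0499). The wild-type dark signal was under the floor, so this average depends on where the floor is set: a floor at the 20th percentile gave 1.44 and one at the 60th gave 0.24. Counted from 2-fold with no test, 2 of 28 genes were higher in sfr6 in light and 1 lower (1.01% and 1.72% of all probe sets), and after dark 1 of 25 was higher and 0 lower (0.775% and 1.67%). UGT73B4 was the 1 gene of 23 that was higher in both conditions (0.186%), and 0 were lower in both (0.52%). The adjusted p lay at the threshold: it ranged from 0.0059 to 0.434 over 7 alternatives, and 3 of the 7 kept the call.

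UGT73B5 lies next to UGT73B4 on the chromosome. Its signals were 36.4 (wild type) and 80.0 (sfr6) in light, then 26.7 and 37.7 after dark. The excess in sfr6, 2.2-fold in light and 1.41-fold after dark, did not pass (average log2 effect 0.82 ± 0.22, limma adjusted p 0.114). The sfr6 dark signal overlapped the wild-type light signal. UGT73B4 and UGT73B5 were lower in dark in both genotypes, and UGT73B5 passed that test (average dark effect -0.76 ± 0.22).

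The other genes with an unadjusted p under 0.05 were UGT71C1, UGT72E1, UGT74B1, UGT76B1 and UGT85A2, with average log2 effects between 0.37 and 0.53 and limma adjusted p between 0.161 and 0.222. UGT76B1, whose product glucosylates salicylic acid and other immune signals, read 53.6 and 76.6 in wild type and sfr6 in light, and 65.8 and 95.6 in dark. Its genotype differences of 1.43-fold and 1.45-fold were alike in both conditions. UGT73C1 showed a genotype effect of 0.03 ± 0.17.

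Over the UGT genes compared, sfr6 minus wild type had a median of 0.08 on the log2 scale over 28 genes in light and 0.12 over 25 in dark, beside 0.02 and 0.05 over all probe sets. With the arrays centred on the spike-in controls, which shifted the sfr6 arrays against the wild-type arrays by 0.223 (light) and 0.139 (dark), the UGT medians were 0.28 and 0.26 beside 0.23 and 0.18 for all. The UGT medians stayed above 0 in light and dark under each alternative scaling, floor and filter tried.

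**Figure D3:**
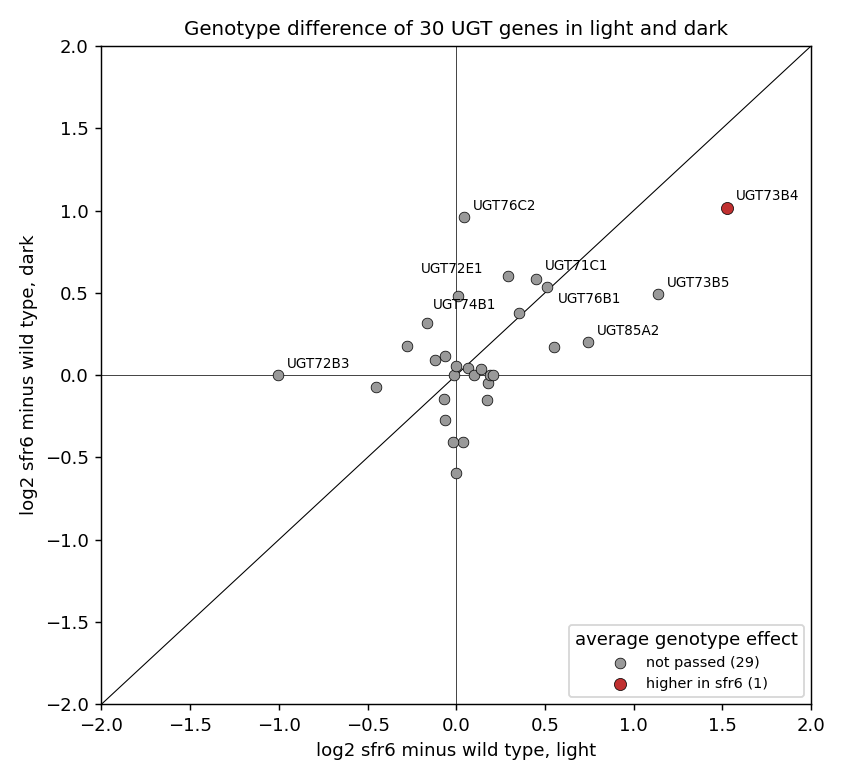
Log2 sfr6 minus wild type difference of floored signals in light (horizontal) and dark (vertical) for the 30 UGT genes; the diagonal marks equal differences. UGT73B4, in red, lies at 1.52 in light and 1.02 in dark, and UGT73B5 at 1.14 and 0.49; points on an axis have both signals of that comparison under the floor, or nearly equal signals.

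Many UGT genes lie beside each other in the genome. By the gene order of RefSeq (assembly TAIR10.1, used for names and order), 29 of the 45 genes formed 12 runs with at most 2 other genes between neighbours, and 8 runs held at least 2 tested genes. Neighbours had dark effects of both signs in 2 of the 8 runs. The adjacent genes UGT71C2 and UGT71C1 differed most plainly, since UGT71C2 rose by 1.88 on the log2 scale and UGT71C1 fell by 0.82. In the other such run, UGT71C5 rose by 1.11 beside UGT71C4, at -0.16, which did not pass, and UGT71C3, which was under the floor.

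In the other runs, neighbours over the floor on more than 1 array shared a direction. UGT84A3 and UGT84A4 fell by 0.82 and 0.89 (the latter on floored signals, and -1.11 with the floor at the 20th percentile), UGT85A2 and UGT85A5 rose, and UGT76C1 and UGT76C2 were both higher in dark in both genotypes without passing. UGT73C1 fell, while its neighbour UGT73C2 was over the floor on 1 array only, at 23.7 in sfr6 light. UGT76E11 and UGT76E12 stood in the same relation, UGT76E12 reaching 25.5 in sfr6 light. Neighbouring UGT genes are similar in sequence, and cross-hybridisation between their probes was not tested.

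**Figure D4:**
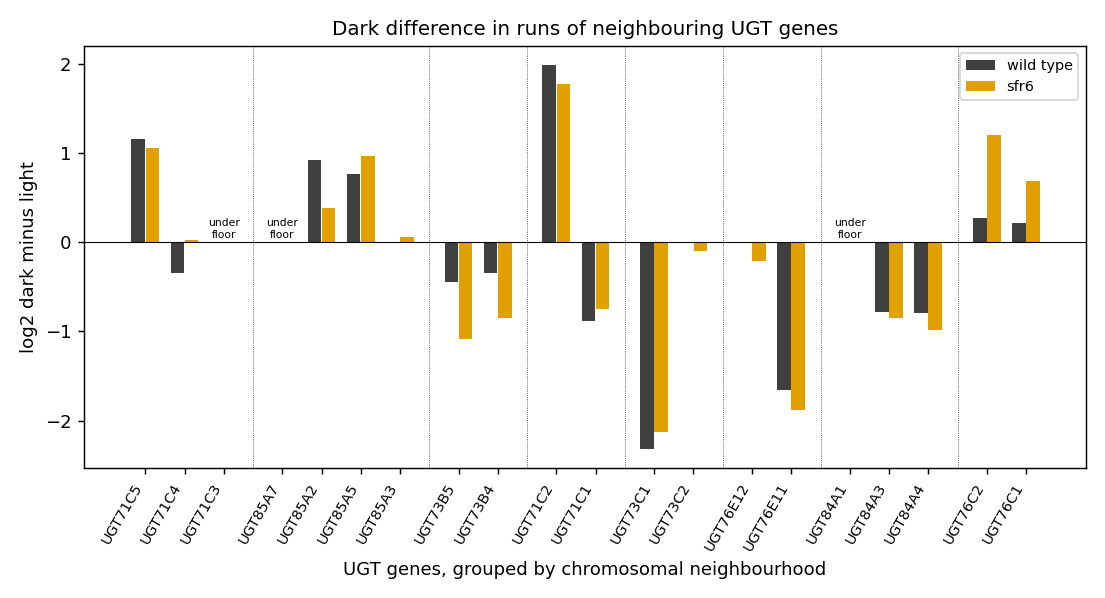
Log2 dark minus light difference of floored signals in wild type (dark bars) and sfr6 (yellow bars) for UGT genes in the 8 runs of chromosomal neighbours with at least 2 tested genes; dotted lines separate runs. UGT71C2 and UGT71C1 point in opposite directions, at 1.98 and -0.89 in wild type, while UGT84A3 lies at -0.78 and UGT84A4 at -0.80; the bars of UGT71C1 and UGT84A4 in wild type end at dark signals set to the floor.

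Genes that supply or reverse UGT reactions were read beside the family. Of 25 genes of UDP-sugar supply, USP had a named probe set, and it fell (168 in light and 100.4 after dark for wild type, 161 and 100.9 for sfr6; limma adjusted p 0.012); USP makes UDP-sugars from sugar phosphates. Of 10 listed genes of phenylpropanoid synthesis, 0 had one. Beta-glucosidases of the BGLU family can remove sugars that UGTs attach. Of 10 tested genes whose symbol is BGLU followed by a digit, 2 rose and 3 fell, beside 15.4% and 17.8% of all tested probe sets. Beta-glucosidases under other symbols were not counted. BGLU40 fell, with light and dark signals of 244 and 49.4 for wild type and 213 and 67.5 for sfr6, while BGLU16 rose, with 117 and 311, and 106 and 313.

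Glutathione transferases conjugate foreign compounds, as some UGTs do. Of 9 tested genes, all of the tau (GSTU) class, 6 fell in the dark and 0 rose, beside 17.8% and 15.4% of all tested probe sets. From the same 9, 3 were called as higher in sfr6, GSTU20, GSTU22 and GSTU25, beside 0.417% of all. The list was chosen with earlier results of these data known, so these shares are a description and not a test. GSTU20 read 406 (light) and 69.3 (dark) for wild type and 663 and 140 for sfr6. Like UGT73B4, all 3 had higher signals in sfr6 in both conditions and lower signals in dark in both genotypes, whereas GSTU16 read 334 (light) and 219 (dark) for wild type and 260 and 177 for sfr6, lower in sfr6 in both conditions without passing that test. The calls of GSTU20 and GSTU25 held under 4 of 8 alternatives and that of GSTU22 under 5, with the sfr6 effect above 0 in each.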

How the data were processed

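Total RNA of 4 Arabidopsis thaliana samples, 1 per group, was measured on Affymetrix ATH1 arrays with biotin label. The deposited values are signal intensity values that the submitters' processing notes credit to MAS5 (version not given in the sources used here); their range and sign fit a linear scale. The mean without the lowest and highest 2% was equal on the 4 arrays, so they had been scaled to 1 level. Each group is 1 array, so the precision is limited by their number.

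Of 22810 probe sets, 64 controls were left out. Gene names came from the platform annotation, and all 45 family members matched RefSeq (TAIR10.1). Signals under the 40th percentile (22.1) were set to it before log2, and a fold with such a signal on its dimmer side is a lower bound, written as at least that many fold. The 15121 probe sets reaching the floor on some array were fitted in R 4.3.3 by limma 3.58.1: genotype plus darkness, without interaction, eBayes moderation with a trend on intensity, and Benjamini-Hochberg adjusted p under 0.05. The model has 1 residual degree of freedom and a prior of 5.15. Tested on simulated data, it recovered most of the changed genes, with a share of false calls above the nominal level. The simulated data held fewer changed genes than were called here and had no floor. The share of false calls among those reported was therefore not measured. "Rose", "fell" and "called" mean past that threshold. Single differences between 2 arrays and the response difference (sfr6 minus wild type, log2) have no test and were counted from 2-fold. Figures used matplotlib 3.10.9.

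Genes named with values are those that passed the dark test and were 2-fold in both genotypes, passed the genotype test, had the 4 highest or 4 lowest response differences over the floor or one of at least 2-fold, had the 5 highest mean signals, were 2-fold in both conditions, or were UGT73B4, UGT73C1 or UGT71C2, with 3 further calls from either end of the dark effect. UGT71C1, UGT72E1, UGT76B1, UGT84A3 and the chromosomal neighbours were added after their values were seen. The members, companion lists and tests were chosen with earlier results of these data known. Alternatives changed the floor, the scaling, the trend and the filter. No protein or promoter sequence was used here.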

Additional observations from a re-analysis of the deposited data

Results flagged for a closer look

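In 2 of 26 genes the dark difference had opposite signs in wild type and sfr6, each from 1 array per condition: UGT71C4, with a response difference of 0.38 on the log2 scale, and UGT72E1, with 0.31. In 7 of 23 genes the sfr6 difference had opposite signs in light and dark, and the response difference was -0.443 for UGT72E2, -0.327 for UGT73B1, 0.183 for UGT73C1, 0.481 for UGT74D1, -0.229 for UGT76E11, 0.453 for UGT80B1 and 0.207 for UGT85A5. None of these differences was tested, and with 1 array a group small differences change sign readily. The shares of all probe sets with such opposite signs are not given here, so neither count sets UGT genes apart.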

How the results depend on the processing

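No paired analysis was possible because each group holds 1 array, beyond the additive model, which already compares dark with light within each genotype. Of the 18 dark calls, 11 held under each alternative run for them, and no dark effect changed sign. Of those 11, UGT71C1 and UGT84A4 were not tested with the floor at the 60th percentile or with the 4-array filter. UGT71B1, UGT72B3, UGT85A4 and UGT85A5 were lost with the floor at the 60th percentile alone; UGT73B5, UGT87A2 and UGT88A1 were lost under 3 or 4 alternatives. With that floor 24 genes were tested, 3 rose and 7 fell, and 0 were higher in sfr6. With it, 0 were 2-fold higher in dark in both genotypes and 0 had a response difference of 2-fold or more above 0. With the floor at the 20th percentile, the response difference was 2-fold or more above 0 for 2 of 38 genes and as far below 0 for 4. With log2(signal + 16), these were 0 and 1, and the median dark difference in sfr6 was -0.475. The count of response differences 2-fold or more above 0 was also 0 with spike-in centring and over the floor on all 4 arrays. The count of genes higher in sfr6 was 0 with quantile normalization, median centring, no intensity trend and the 4-array filter (UGT73B4 is not tested under the last), and 2, UGT73B4 and UGT73B5, with spike-in centring, which moved the median genotype difference in light to 0.278. Over all probe sets, 193 were called by genotype, and between 2 and 1187 under the alternatives. The cause was not tested. Signals near the floor limit the low-signal genes. Of the genes without a dark call, UGT76C2 passed the dark test under 4 of 8 alternatives and UGT73B4 under 2 of 7.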
